A study of Mus musculus with 4 samples.

Results

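Septins are GTP-binding cytoskeletal proteins, and the genes described here are the 7 whose symbol appears in a MyoD peak list in the date form a spreadsheet gives to septin symbols (such as 9-Sep) and whose description reads septin followed by the same digits: Sept4, Sept5, Sept7, Sept8, Sept9, Sept10 and Sept11. They were chosen by having at least 1 MyoD peak in the gene body or a 2-kb flank in either list, so that the presence of a peak is not a finding, and they are 7 of 7235 genes that the lists name. Binding of MyoD, the bHLH transcription factor of the muscle lineage, was mapped by ChIP-seq (antibody SC-760) in myotubes, which are fused and multinucleated muscle cells, grown from primary C57BL/6 myoblasts of mice aged 2 weeks. After 5 days of differentiation in low horse serum, the myotubes spent 24 hours in differentiation medium with or without pyruvate, the end product of glycolysis. There was 1 ChIP library and 1 input per condition, and each ChIP library had 1 list of peaks, with 11907 peaks with pyruvate and 19338 without. With no replicates, no comparison below has a replicate check or a p-value. Read depth is unknown, so a site without a peak in 1 list is one where none was detected. The conditions are taken from the titles of the samples, which no measured value checks. Shorthand in the names of the deposited tables can be read the other way round, and every direction given here would then turn. Of 7 muscle genes used as markers of the cell type (Myog, Des, Chrna1, Ckm, Acta1, Ttn and Myh3), 7 had a peak in the list with pyruvate and 5 in the list without, and of 8 genes of liver, macrophage, neuron and fibroblast 1 and 5 had one. These are sites of MyoD and not RNA levels. The list without pyruvate is also the longer, and the part of list length in this difference between marker genes was not tested.

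Septins assemble side by side into rod-shaped complexes, which join into filaments and rings along the plasma membrane, actin and microtubules. They are known as scaffolds of the cleavage furrow in dividing cells and as barriers and braces of the cell cortex in cells that no longer divide, muscle fibres among them. Family members fall into groups by sequence, and each group fills a set place in the complex: Sept7 stands alone in its group and Sept9 belongs to the group named for Sept3. The group named for Sept6 holds Sept8, Sept10 and Sept11, and the group named for Sept2 holds Sept4 and Sept5. In the annotation deposited with the peaks, 7 of the 7 genes carried the term cytoskeleton and 6 the term cell division, the exception being Sept8. Sept4 alone among them carried a pathway, apoptosis, and the term mitochondrion.

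Peaks at septins were concentrated in Sept9 and Sept11, which held 15 of 18 septin peaks with pyruvate and 16 of 22 without. The other 5 genes had 3 and 6 peaks between them. Sept9 and Sept11 also had the longest of the septin bodies that were located, 163 and 83.0 kb. Per 100 kb of body with pyruvate, Sept11 had 7.23 peaks, Sept9 5.53, Sept4 4.62 and Sept8 3.30, the last 2 from 1 body peak each. Without pyruvate, the values were 6.76 for Sept9, 6.02 for Sept11, 1.67 for Sept7 and 1.25 for Sept10. Sept9, Sept11 and Sept4 had a peak in both lists, although Sept4 without pyruvate had it only in its downstream flank. Sept8 had a peak only with pyruvate, and Sept5, Sept7 and Sept10 only without. Those are 3, 1 and 3 of the 7 genes, where 55.1%, 9.95% and 35.0% of all 7235 named genes fell in the same categories. When the narrowest peaks without pyruvate were dropped until the lists were equally long, 1 septin in place of 3, Sept7, was bound only without pyruvate. The share of all genes after this trimming is not given here, so the drop is not a result about septins. A peak was counted as shared when it overlapped a peak of the other list by at least 1 base. By that measure 12 septin peaks were shared. They made 66.7% of those with pyruvate (95% exact binomial interval 41.0 to 86.7, which covers counting error only), beside 71.8% of all peaks in that list. Without pyruvate they made 54.5% (32.2 to 75.6), beside 44.2% of all peaks. Both intervals contain the share of all peaks. Without Sept9 the shares were 33.3% (7.49 to 70.1) and 27.3% (6.02 to 61.0), so that 1 gene set the level. Sept9 itself had shares of 100% and 81.8%, so leaving it out had to lower both values. These intervals are therefore no test against the 71.8% and 44.2% of all peaks. Leaving out Sept9 was chosen after seeing the data. The peaks within 1 gene share its sequence and its library, so these peaks are not replicates of a condition.

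**Figure D1:**
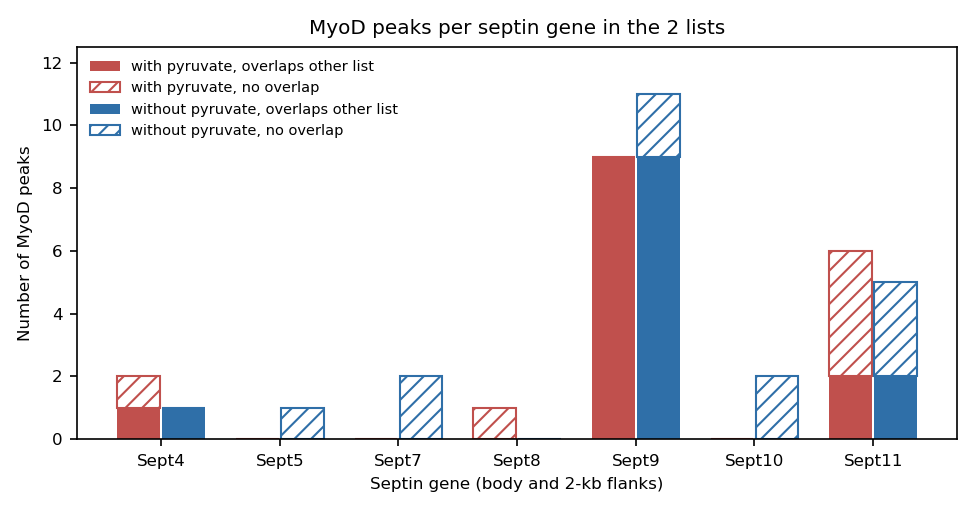
Number of MyoD peaks (y axis) in the body and 2-kb flanks of each septin gene (x axis), for the list with pyruvate (red) and without (blue), 1 library each; solid parts overlap the other list and hatched parts do not. Sept9 stands highest with 9 and 11 peaks, almost all solid, while Sept11 has 6 and 5, mostly hatched.

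The 250 bases upstream of the RefSeq start site are shown for the 3 genes on which the results turn most, since a MyoD dimer binds the E-box, whose letters are CANNTG. They come from RefSeq of GRCm38.p6, a later build than the mm9 coordinates of the peaks, and are printed 5′ to 3′ on the strand of the gene, with every CANNTG in capitals (the motif reads the same on both strands). The window is chr11:117199411-117199660 on the plus strand for Sept9 (the outermost of its 4 entries), chr5:93093166-93093415 on the plus strand for Sept11 and chr10:59221501-59221750 on the minus strand for Sept10.
Sept9: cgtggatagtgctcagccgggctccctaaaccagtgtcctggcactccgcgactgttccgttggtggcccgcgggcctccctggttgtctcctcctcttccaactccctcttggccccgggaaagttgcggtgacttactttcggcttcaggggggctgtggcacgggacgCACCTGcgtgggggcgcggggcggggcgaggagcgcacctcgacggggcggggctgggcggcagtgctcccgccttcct
Sept11: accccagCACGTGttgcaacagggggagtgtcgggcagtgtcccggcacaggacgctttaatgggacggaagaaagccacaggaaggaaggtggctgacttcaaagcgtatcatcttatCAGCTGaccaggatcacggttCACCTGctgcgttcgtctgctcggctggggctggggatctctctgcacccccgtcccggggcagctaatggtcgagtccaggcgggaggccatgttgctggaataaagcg
Sept10: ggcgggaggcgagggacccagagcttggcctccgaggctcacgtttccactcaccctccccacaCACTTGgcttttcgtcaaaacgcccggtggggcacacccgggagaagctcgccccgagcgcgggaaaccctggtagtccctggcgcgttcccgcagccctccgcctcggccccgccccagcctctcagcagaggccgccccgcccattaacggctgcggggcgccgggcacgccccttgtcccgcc
Sept11 had 3 E-boxes, and one of them was CAGCTG, a form that MyoD is known to bind. Sept9 had 1 and Sept10 had 1. Another form known for MyoD, CAGGTG read on either strand, was the one in Sept9 and was also among those of Sept11. Of all 32851 windows of that length in the table, 66.2% held an E-box of any kind, 13.0% the first of these forms and 17.2% the other. RefSeq symbols matched 7 of the 7 septins, and 6 had entries, 14 in all, of which 10 held an E-box, 2 the first form and 5 the other. Entries are not independent. Those of Sept4 at chr11:87578139-87578388 and chr11:87578170-87578419 overlap and hold the same CAGGTG, so this site was counted in both. These counts are therefore not a measure of excess over the shares of all windows. A match is a string of letters and not a measured site. In the coordinates of the deposited files, the peak nearest to the listed start site lay 17083 bases away in Sept9, 12053 in Sept11 and 1036 in Sept10, so no peak covered a listed start. The sequence under the peaks was not analysed here.

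Sept9 (ENSMUSG00000059248, chr11:117060975-117223639 of mm9, plus strand), which takes part in septin octamers and binds microtubules and actin, carried more MyoD peaks than the other septins: 9 with pyruvate and 11 without, all in the gene body. Each of the 9 peaks with pyruvate overlapped a peak of the other list, and 9 of the 11 without did. Along the gene, the widths of these 9 peaks with pyruvate were 241, 352, 453, 170, 382, 208, 731, 333 and 470 bases. In the same order, their partners without pyruvate were 269, 223, 427, 175, 367, 276, 509, 259 and 520 bases wide. In 5 pairs the peak with pyruvate was the wider, and in 4 the one without, so the pairs did not lean to 1 list. The pair at chr11:117157692-117158423 with pyruvate and chr11:117157740-117158249 without held the widest septin peak of all, 731 bases, at percentile 99.5 of widths in its list. Its partner, 509 bases, was at percentile 96.7.

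The Sept9 peaks ran from 10.6% to 73.4% of the way along the body, with none in the last stretch. Peaks stood close together in places. In both lists a wide and a narrow peak lay side by side about 40 kb from the start: 453 and 170 bases with pyruvate (chr11:117100875-117101328 and chr11:117101699-117101869), and 427 and 175 without. The 2 peaks seen only without pyruvate flanked a shared one at the downstream end of the run. They were 411 bases wide at chr11:117176620-117177031 and 252 bases wide at chr11:117180230-117180482, 1977 and 752 bases away from the peak with pyruvate at chr11:117179008-117179478. The shared peak at chr11:117121978-117122360 (382 bases with pyruvate, 367 without) also lay inside an unnamed gene on the opposite strand (ENSMUSG00000086050), 2391 bases from the start of that gene.

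Sept9 is a long gene, of 162665 bases, and was therefore set beside genes of like length. Of 945 named genes whose bodies were within 1.5 times its length, 7 had more peaks than Sept9 with pyruvate and 5 without, and the medians were 1 and 2 peaks. Over all genes with a peak, 25 of 4704 had more than Sept9 with pyruvate and 27 of 6515 without. Of the 38 genes with 9 or more peaks with pyruvate, 3, Sept9 included, had an overlap for every one of them, and the median share was 66.4%. The limit of 9 peaks and the rule of overlap for every peak are the values of Sept9 itself, so this is a description. RefSeq lists 4 start sites for Sept9 in GRCm38.p6. The internal ones were not placed on mm9 here, so that distances are from the outermost start alone, and whether a peak lies in an exon or an intron was not analysed here.

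**Figure D2:**
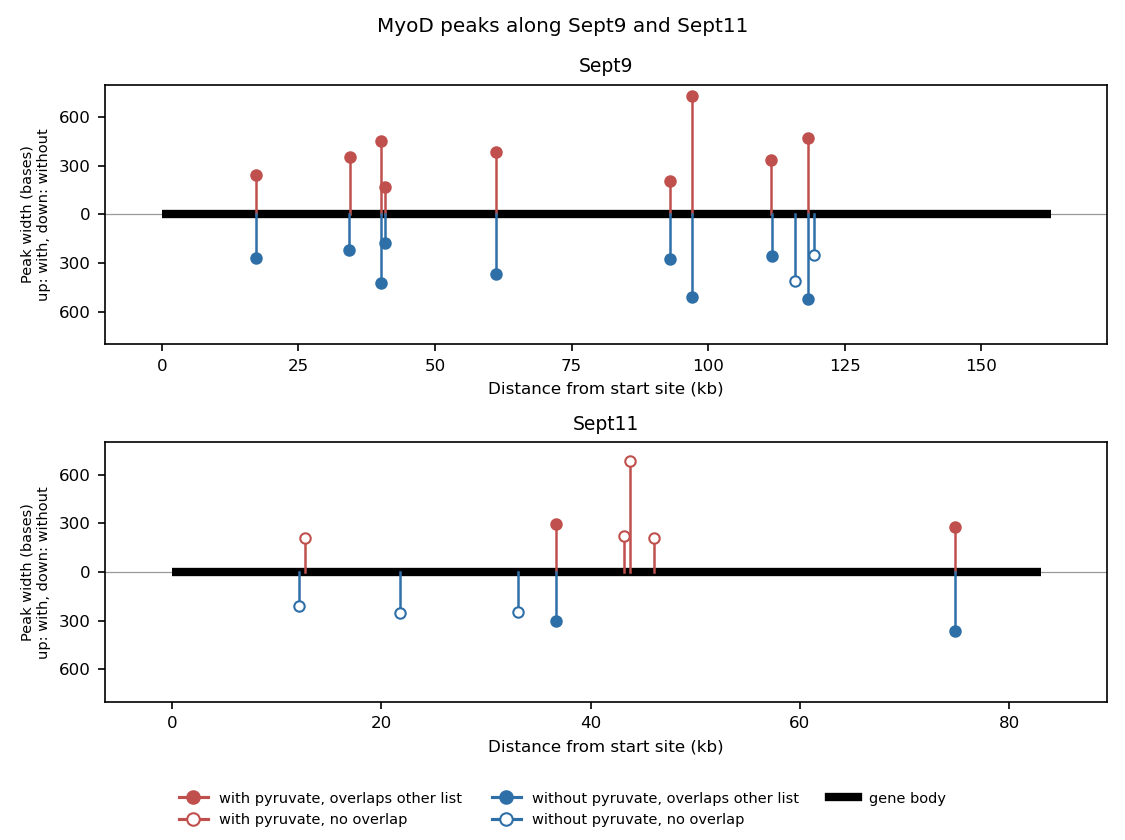
MyoD peaks along Sept9 (top) and Sept11 (bottom), placed by the distance of their centre from the start site in kb (x axis), with stems as high as the peak is wide in bases, upward for the list with pyruvate and downward for the list without. Filled points overlap the other list and open points do not; the 9 red points of Sept9 are all filled, and Sept11 has 4 open red and 3 open blue points.

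Sept11 (ENSMUSG00000058013, chr5:93522483-93605473, plus strand), a filament septin of the Sept6 group, had nearly as many peaks in each list, 6 with pyruvate and 5 without, but mostly at different sites. Only 2 positions were shared. At the first, chr5:93559068-93559364 with pyruvate, the peaks were 296 and 301 bases wide. At the other, chr5:93597124-93597405, they were 281 and 364 bases, and the peak with pyruvate lay wholly within its partner. The shared peaks thus made 33.3% of Sept11 peaks with pyruvate (4.33 to 77.7) and 40.0% of those without (5.27 to 85.3). Over all peaks the shares were 71.8% and 44.2%, and both intervals contain them.

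The peaks of Sept11 seen only with pyruvate included 3 next to each other in the middle of the gene. The widest was 687 bases, at chr5:93565924-93566611, at percentile 99.2 of widths, and was the 3rd widest of the 3352 peaks in that list with no overlap. A peak of 220 bases (chr5:93565614-93565834) lay 90 bases before it and one of 210 bases (chr5:93568482-93568692) 1871 bases after it. The nearest peak without pyruvate was 6291 bases or more from each of these 3 peaks. Without pyruvate, the unshared peaks stood nearer to the start than this run of 3, with widths of 208 bases at chr5:93534536-93534744, 254 at chr5:93544144-93544398 and 248 at chr5:93555406-93555654. The first of them and the remaining peak with pyruvate (211 bases, chr5:93535145-93535356) missed each other by 401 bases, so they counted as unshared under every overlap rule used.

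Of 214 genes with 5 or more peaks in both lists, Sept11 alone had a shared portion as low as its own in both lists at once. The medians over those genes were 80.0% with pyruvate and 64.5% without. The limit of 5 peaks was set after the values of Sept11 were seen, and the counts are small, so this is a description. Among 1339 named genes of like length, 17 had more peaks than Sept11 with pyruvate and 61 without.

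The other septins of the Sept6 group had few peaks. Sept8 (ENSMUSG00000018398, chr11:53332759-53363067, plus strand) had 1 peak with pyruvate, 195 bases wide at chr11:53359869-53360064, at 89.8% of the gene's length from its start. It had none without, and the nearest peak of that list was 38016 bases away. Sept10 (ENSMUSG00000019917, chr10:58604398-58684595, minus strand) showed the reverse, with 2 peaks without pyruvate and none with. These 2 stood on either side of its start at nearly equal distance: 186 bases wide at chr10:58683352-58683538, 1057 bases inside the gene, and 215 bases wide at chr10:58685631-58685846, 1036 bases upstream. An unnamed gene on the plus strand (ENSMUSG00000071286) starts 106 bases from the start of Sept10, and both peaks were listed for that gene as well, 1163 and 930 bases from its start. The files therefore do not tell which of the neighbouring genes the peaks belong to. The nearest peak with pyruvate was 98060 bases or more from them.

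Sept7 (ENSMUSG00000001833, chr9:25056204-25116150, plus strand), the core subunit that septin complexes share, had 2 peaks without pyruvate and none with. One was 334 bases wide, at percentile 81.9, and lay 3128 bases past the start at chr9:25059332-25059666, beyond the 2-kb window used for promoter-proximal peaks. The other was 144 bases, the smallest width in that list, in the downstream flank at chr9:25117425-25117569, 1275 bases past the gene's end. The nearest peaks with pyruvate lay 79384 and 27839 bases away.

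The Sept2 group gave 1 shared peak. Sept4 (ENSMUSG00000020486, chr11:87382405-87404041, plus strand), known for its part in sperm tails and, as the isoform ARTS, in apoptosis, had 2 peaks with pyruvate and 1 without. Its shared peak was 223 bases wide with pyruvate (chr11:87405591-87405814) and 231 without (chr11:87405599-87405830), 1550 and 1558 bases past the gene's end. In both lists it covered the start of the next gene, Mtmr4 (position 87405664), which encodes a phosphoinositide phosphatase. The only peak in the body of Sept4 was the one seen with pyruvate alone, 293 bases at chr11:87387322-87387615, 4917 bases from the start. Sept5 (ENSMUSG00000072214, chromosome 16), a septin of nerve terminals that holds back vesicle release, had 1 peak without pyruvate, 160 bases wide at chr16:18620152-18620312 and at percentile 5.79 of widths. It lay in a flank that may be upstream or downstream of Sept5, and it was also listed for a flank of Gp1bb, which encodes a platelet glycoprotein.

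**Figure D3:**
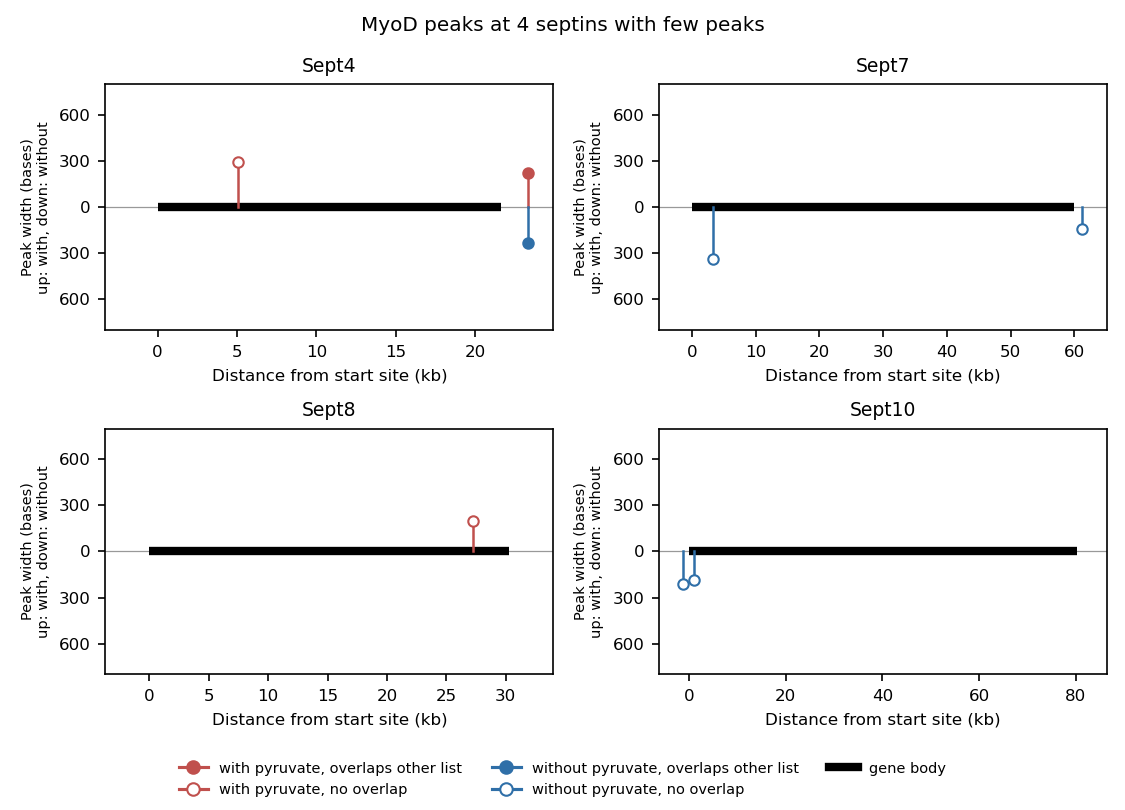
MyoD peaks at Sept4, Sept7, Sept8 and Sept10, drawn as stems at the distance of the peak centre from the start site (x axis, kb) with the peak width in bases as height, upward with pyruvate and downward without; filled points overlap the other list. One position among these genes is filled in both directions, the flank of Sept4 that covers the start of Mtmr4, and the 2 peaks of Sept10 stand on either side of its start.

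Promoter-proximal binding, meaning a peak no more than 2 kb away from the start or one in a flank of unknown side, was seen at 2 of the 7 septins. No septin had it in both lists, none only with pyruvate, and 2 (Sept10 and Sept5) only without, where the shares of all genes were 18.7%, 6.01% and 17.7%. Sept5 counted only through its flank of unknown side, and when peaks under 250 bases were dropped the count was 0. Of the septin peaks, 17 of 18 with pyruvate and 18 of 22 without lay in gene bodies. A septin peak had to lie in a body or a 2-kb flank to be counted, and most were in the long bodies of Sept9 and Sept11. The same share over all genes was not computed, so these counts do not set septins apart from other genes. The median distance from the start site was 41928 bases with pyruvate and 39922 without, over the peaks of genes whose start was located.

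Peak width was the only measure of size that the files gave. The narrowest of all peaks was 169 bases wide with pyruvate and 144 without, so widths in the 2 lists start from different floors. Septin peaks had a median width of 287 bases with pyruvate (range 170 to 731) and 256.5 without (144 to 520), beside 250 and 241 for all peaks. The shared ones had medians of 314.5 and 288.5 bases and the unshared ones 215.5 and 231.5, where all shared peaks had 265 and 289 and all unshared ones 218 and 212. In both lists the shared septin peaks were the wider by median, while the unshared ones with pyruvate included the 687-base peak of Sept11. Among the 12 shared pairs, the peak with pyruvate was the wider in 5 and the narrower in 7, and the ratio of widths ran from 0.754 to 1.58 with a median of 0.977. Over all 8555 shared pairs it was the wider in 37.9%, with a median ratio of 0.925. The centres of septin pairs were a median of 28 bases apart (range 7.5 to 83.5), beside 17.5 for all pairs. No septin pair departed from equal width by more than 1.58 times.

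**Figure D4:**
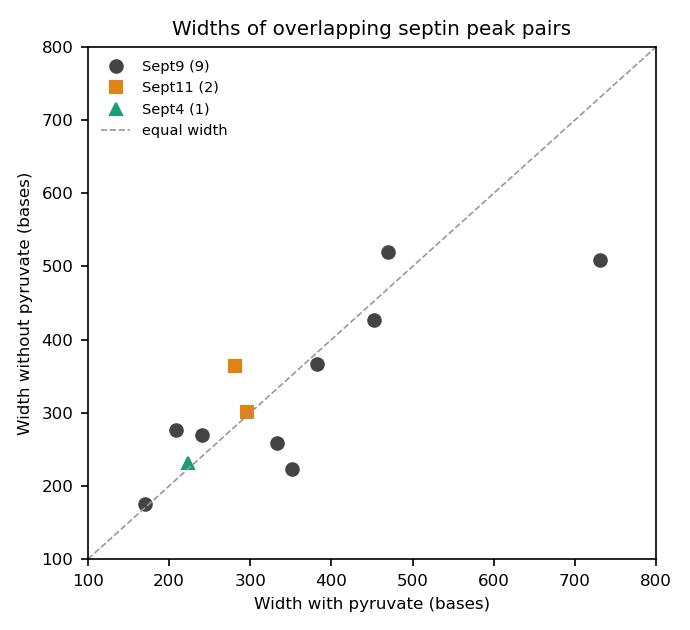
Widths in bases of the 12 septin peak pairs that overlap between the lists, with pyruvate on the x axis and without on the y axis; each point is 1 pair of Sept9, Sept11 or Sept4, and the dashed line marks equal width. There are 5 points below the line and 7 above it, with the 731-base peak of Sept9 farthest below.

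Genes of proteins that bind septins or act with them at the cell cortex and the cleavage furrow were set beside the septins. Of 16 such genes, 12 were named in the files, 8 of them with a peak in both lists, none only with pyruvate and 4 only without, beside 55.1%, 9.95% and 35.0% of all named genes. Cdc42ep3, which encodes a Borg protein that links the GTPase Cdc42 to septins, had a promoter-proximal peak with and without pyruvate, 348 bases wide with pyruvate and 581 without. Ect2, whose protein is needed for cell division, also did, with 214 and 256 bases. Cdc42ep5, another Borg gene, had 1 promoter-proximal peak, 198 bases, only without. Myh9, a nonmuscle myosin heavy chain gene, had 3 peaks with pyruvate and 6 without, with widest peaks of 283 and 252 bases. Together the 16 genes had 10 peaks with pyruvate, of which 9 were shared, and 22 without, of which 9 were shared, beside the 71.8% and 44.2% shared over all peaks.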

How the data were processed

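Per the labels' protocols, MyoD was precipitated from sonicated nuclei, and libraries were amplified by PCR and selected by size on a gel. The submitters' processing notes name bcl2fastq 2.19, Bowtie2 2.1.0, MACS2 2.1.1 and mouse build mm9. For the calling threshold, the role of the inputs and the annotation's origin, nothing is given in the sources used here. In the deposited files, a peak has 1 row for each gene body or 2000-base flank that it touches, per the file headers and values. Their columns of fold enrichment, as deposited, hold 0 in every row with a number, so peak width stood in for them. Inputs were not analysed here.

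Repeated rows of a peak were merged, and coordinates are printed as deposited. Genes were pooled by symbol. A start site was the 5′ end of the gene body, or, for a gene listed by both flanks only, of the stretch between them. Widths are end minus start. Septins, gene lists and measures were chosen with earlier results of these data known. Every septin was named, and of the 16 partner genes at most 6, promoter-proximal ones first and then by number of peaks; 2 of these 6 are not reported here. The comparison with genes of many peaks was chosen after values were seen. The overlap code was tested on simulated data. Figures were drawn with matplotlib 3.10.9, and intervals computed with scipy 1.17.1, under Python 3.11.15 with pandas 2.3.3.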

Additional observations from a re-analysis of the deposited data

How the results depend on the processing

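Of 57 alternative values, 40 stayed within their bounds (1.5 times for a count, the 95% interval for a share or median) and 17 moved. Some of the 40 could not move, so their number is not a measure of stability. Trimming the longer list leaves the count and median width of septin peaks with pyruvate untouched. Promoter-proximal counts of 0 in both lists or only with pyruvate could not rise under stricter rules. With peaks of at least 250 bases, septin peaks numbered 10 with pyruvate and 13 without, 1 septin was bound only without, 0 had a promoter-proximal peak only without, and 4 partner genes had a peak in both lists. With the longer list limited by width to the length of the shorter, 1 septin was bound only without and 0 had a promoter-proximal peak only without, and partner genes were 1 only with and 0 only without. Shares of all genes under these alternatives are not given here, so the changed counts do not set septins or their partners apart. Septins with a promoter-proximal peak only without pyruvate were 0 within 1 kb of located starts and 1 with located starts alone; within 10 kb, 1 septin had one only with. Counting gene bodies alone, 2 septins were bound only with and 2 in both lists, in place of 3. Without Sept9, an alternative chosen after seeing the data, 9 septin peaks with pyruvate and 11 without were left, of which 33.3% and 27.3% were shared, so the shared portion of septin peaks rests on Sept9. The alternatives that moved a value drop peaks or genes or change the window by construction. No paired analysis was possible because there is 1 library per condition.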

Other observations

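Peaks around the septins, outside their bodies and 2-kb flanks but within 50 kb, numbered 4 with pyruvate and 16 without, and 4 in each list were shared. The lists hold 11907 and 19338 peaks in all, of which 71.8% and 44.2% were shared. Beyond the end of Sept7, which had no peak of its own with pyruvate, both lists held a peak outside all gene regions, 355 bases wide with pyruvate (chr9:25145408-25145763) and 384 without, 27.3 and 27.2 kb past the flank. Beside Sept10, likewise without a peak of its own with pyruvate, both lists held a peak in Sh3rf3, 350 and 507 bases wide, 24.3 and 24.1 kb away. Sept8, bound only with pyruvate, had 3 neighbouring peaks without pyruvate, 181 to 225 bases wide, and none with. Near Sept5, a peak in an unnamed gene (ENSMUSG00000075335) 15.2 kb from the listed flank was in both lists, 419 and 265 bases wide. Which gene these peaks act on, if any, is not shown by the lists.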
